A study of Oryza sativa with 51 samples.

Results

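RNA from rice seedlings under severe drought was compared with RNA from seedlings under normal water. The comparison held 3 libraries of each condition, which are 6 of the 51 samples of the series. All 6 came from the line Zhonghua11 at the 4-leaf stage, grown outdoors in a mix of sand and paddy soil, with 14 h of light and 10 h of dark. In the severe drought group, water was withdrawn slowly to about 10% water in the soil, relative to the soil's weight after stress; the normal group had no drought treatment. The labels give no transgene or mutation for these plants. The libraries were made from mRNA of harvested seedlings, and no tissue is named for them. The labels also do not say whether each replicate was its own planting, and every p-value therefore rests on how far these libraries differ within a group, which may be technical.

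Plants that lose water make abscisic acid (ABA), a hormone built from carotenoids. ABA bound to its receptor blocks clade A protein phosphatases 2C (PP2C), which frees the SnRK2 kinases, called SAPK in rice, to phosphorylate bZIP transcription factors. Those factors switch on genes for protective proteins such as dehydrins and other late embryogenesis abundant (LEA) proteins, which are hydrophilic proteins that accumulate in drying cells. Leaves under prolonged drought are also known to lower photosynthesis and to break down chlorophyll.

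Each library listed 55986 genes in TPM, a transcript's share of the library scaled to its length and to a sum of 1000000. Between 19702 and 20012 genes reached 1 TPM in the severe libraries, and between 19185 and 19481 in the normal ones. Coverage set against FPKM, taken as the largest ratio over the genes of a library, implied 9.05 to 9.48 Gb of aligned bases per severe library. In the same way it implied 8.30 to 10.7 Gb per normal library, with read counts not used here. The 100 most abundant genes took 21.8% to 26.4% of all TPM under severe drought and 30.9% to 34.4% under normal water. In such bulk samples, fewer cells of a type and less RNA per cell cannot be told apart.

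The severe libraries did not vary alike. On log2(TPM + 1) over the tested genes, severe replicates 1 and 2 correlated at 0.993, and severe replicate 3 correlated with them at 0.954 and 0.944. The moderate drought libraries of the series (about 20% relative soil water) correlated with severe replicates 1 and 2 at 0.986 to 0.992. With severe replicate 3 they correlated at 0.936 to 0.944. Severe replicates 1 and 2 were thus about as near to moderate drought as to each other. Severe replicate 3 lay at least 1 log2 unit above the mean of the other 2 severe libraries for 1168 genes and at least 1 below it for 508. For a normal library set against the other 2 normal libraries in the same way, these counts were 28 to 68 above and 22 to 94 below. Values are therefore given by replicate, always in the order 1, 2, 3.

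**Figure D1:**
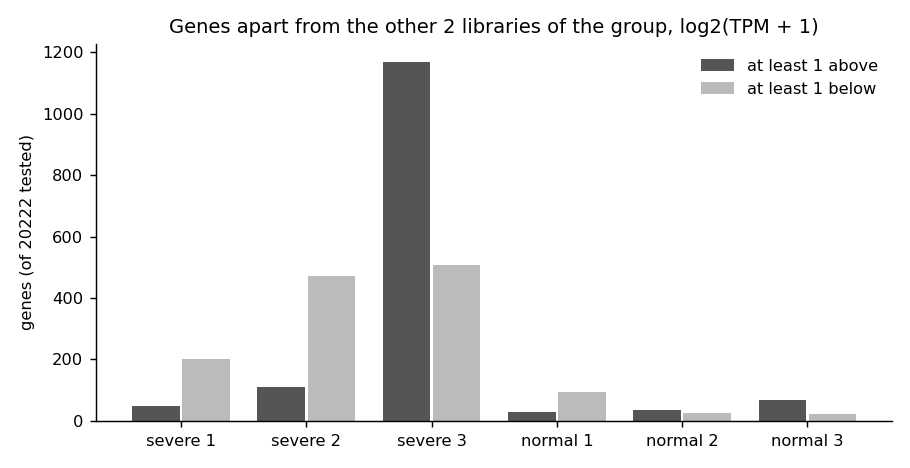
Bars give, for each severe and normal library, the number of genes at least 1 log2 unit above (dark) or below (light) the mean of the other 2 libraries of its group, out of 20222 tested genes. Severe replicate 3 stands out with 1168 genes above and 508 below, while no normal library passes 94 in either direction.

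Of the 55986 genes, 20222 reached at least 1 TPM in at least 3 of the 6 libraries and were tested with limma on log2(TPM + 1), severe minus normal. At a Benjamini-Hochberg adjusted p under 0.05, 11554 genes (57.1%) changed, 7677 of them higher (38.0% of those tested) and 3877 lower (19.2%) under severe drought. Changes of at least 1 on the log2 scale were found for 4340 genes (21.5%), of which 2724 were higher and 1616 lower. The median over all tested genes was 0.21, so lists are described below relative to that value. The split between directions depended on the scaling, with 5169 higher and 5672 lower after quantile normalization and 5411 higher and 5516 lower after median-of-ratios scaling. In 13906 genes (68.8%) the groups did not overlap, 9111 with severe drought above (45.1%) and 4795 with it below (23.7%). Without severe replicate 3, 13602 genes (67.3%) passed, 8898 higher and 4704 lower, and 11410 genes were called the same way with and without it. List counts given below for another scaling, or without severe replicate 3, stand beside these totals of the same fit. Changed, rose and fell refer below to this threshold, and ± gives the standard error of a log2 difference.

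Genes of ABA synthesis and breakdown moved in both directions. Of 5 listed and tested, 2 rose and 2 fell, against 38.0% and 19.2% of all tested genes, and their median was -0.61, against 0.21. Under either other scaling, and without severe replicate 3, 1 rose and 3 fell. NCED3 (LOC_Os03g44380) encodes a 9-cis-epoxycarotenoid dioxygenase, the enzyme class whose cleavage step limits ABA synthesis. It had 17.8, 16.7 and 30.2 TPM under severe drought, against 1.13, 1.58 and 1.92 TPM under normal water. All severe libraries lay above all normal ones, by 3.11 ± 0.25 (adjusted p = 0.000199). ZEP1 (LOC_Os04g37619), the zeaxanthin epoxidase at an earlier step, had 309, 333 and 328 TPM under severe drought, against 621, 623 and 711 TPM under normal water. ZEP1 thus fell by 1.01 ± 0.11 (adjusted p = 0.00056), with no overlap. ABA is broken down by the 8'-hydroxylases, of which ABA8ox1 (LOC_Os02g47470) had 17.2, 16.92 and 33.9 TPM under severe drought, against 2.74, 11.4 and 8.38 TPM under normal water. ABA8ox1 rose by 1.57 ± 0.49 (adjusted p = 0.0318). That call was lost without severe replicate 3, at 1.25 (adjusted p = 0.134), on leaving out severe replicate 1, normal replicate 1 or normal replicate 3, at 1.06 to 1.73 (adjusted p = 0.0539 to 0.0643), and after quantile normalization, at 1.32 (adjusted p = 0.0595). ABA8ox3 (LOC_Os09g28390) had 13.8, 18.1 and 13.3 TPM under severe drought, against 24.09, 23.9 and 28.7 TPM under normal water. ABA8ox3 fell by 0.74 ± 0.14 (adjusted p = 0.00555), so the hydroxylases past the threshold moved in opposite directions.

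The PP2C phosphatases, which hold ABA signalling in check, rose almost as a group. Of 9 clade A genes, all tested, 8 rose, none fell and PP2C53 did not pass. Their median was 1.96, against 0.21 over all tested genes, of which 38.0% rose. PP2C51 (LOC_Os05g49730) had 61.7, 45.8 and 128 TPM under severe drought, against 0.595, 0.427 and 0.937 TPM under normal water. That is a difference of 5.46 ± 0.37 (adjusted p = 0.000125), the largest of the 9. PP2C51 was under 1 TPM in every normal library and passed the filter only through severe drought. Its place among the 8 that rose is therefore not independent of the filter. PP2C68 (LOC_Os09g15670) had 119.6, 108 and 204 TPM under severe drought, against 5.31, 9.99 and 12.1 TPM under normal water, and the lowest severe value was over the highest normal one. The difference for PP2C68 was 3.85 ± 0.34 (adjusted p = 0.000311). PP2C49 (LOC_Os05g38290) rose by 3.42 ± 0.19 (adjusted p = 8.52e-05) and PP2C30 (LOC_Os03g16170) by 2.84 ± 0.22 (adjusted p = 0.000199), each without overlap. PP2C53 (LOC_Os05g51510) differed by only 0.16 ± 0.10 (adjusted p = 0.222), with 28.1, 25.1 and 29.1 TPM under severe drought, against 24.4, 22.7 and 26.5 TPM under normal water. PP2C08 (LOC_Os01g46760) rose by 0.42 ± 0.08 (adjusted p = 0.00459), a call lost after quantile normalization at 0.18 (adjusted p = 0.12) and after median-of-ratios scaling at 0.20 (adjusted p = 0.0861).

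The SAPK kinases, which the phosphatases inhibit, did not move as a group. Of 10, all tested, 4 rose and 3 fell, against 38.0% and 19.2% of all tested genes, with a median of 0.12 against 0.21; 5 fell without severe replicate 3, and also under the quantile and the median-of-ratios scaling. SAPK3 (LOC_Os10g41490) had 80.9, 72.0 and 73.2 TPM under severe drought, against 12.6, 13.9 and 13.0 TPM under normal water. SAPK3 was higher in every severe library, by 2.43 ± 0.09 (adjusted p = 3.22e-05), with severe replicate 3 between the other 2. SAPK4 (LOC_Os01g64970) had 106, 104 and 164 TPM under severe drought, against 32.3, 31.8 and 34.9 TPM under normal water, a rise of 1.86 ± 0.19 (adjusted p = 0.000453). SAPK9 (LOC_Os12g39630) had 19.5, 15.2 and 51.9 TPM under severe drought, against 77.1, 76.7 and 75.0 TPM under normal water. It fell by 1.57 ± 0.42 (adjusted p = 0.0184), and severe replicate 3 was the severe library nearest to normal. The SAPK9 call was lost without severe replicate 1, at -1.40 (adjusted p = 0.0586), or without any one of the normal libraries, at -1.58 to -1.56 (adjusted p = 0.0573 to 0.0583). SAPK2 (LOC_Os07g42940) had 42.1, 37.0 and 52.2 TPM under severe drought, against 99.8, 96.1 and 132 TPM under normal water, and fell by 1.30 ± 0.17 (adjusted p = 0.00131). SAPK4 and SAPK9 each overlap a gene model on the other strand, whose reads cannot be told apart from theirs where counting did not use strand. SAPK1 (LOC_Os03g27280) did not pass at 0.22 ± 0.46 (adjusted p = 0.712), and its 3 severe values were 32.3, 33.1 and 111 TPM, on both sides of the normal 42.6, 40.2 and 44.1 TPM. Without severe replicate 3, SAPK1 fell with a log2 fold change of -0.36 (adjusted p = 0.00285).

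Among the bZIP factors that SAPK kinases act on, 2 could be identified by name. bZIP23 (LOC_Os02g52780), an activator of ABA-responsive genes, had 96.4, 95.5 and 118 TPM under severe drought, against 12.8, 13.2 and 18.9 TPM under normal water. It rose by 2.72 ± 0.17 (adjusted p = 0.000103) without overlap. TRAB1 (LOC_Os08g36790) had 46.0, 42.8 and 62.0 TPM under severe drought, against 34.4, 37.5 and 38.6 TPM under normal water, and although its groups were apart the difference of 0.42 ± 0.15 (adjusted p = 0.0505) did not pass. It passed without severe replicate 3, at 0.26 (adjusted p = 0.0191).

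The protective proteins at the end of this pathway included the largest rises of all listed genes and varied widely among the severe libraries. All 4 tested dehydrin genes and both tested LEA genes rose, beside 38.0% of all tested genes. The median over these 6 was 5.27, against 0.21 over all tested genes. Of the 6, RAB16B, LEA3-1 and LEA3-2 were under 1 TPM in every normal library and passed the filter only through severe drought. The count and the median are therefore not independent of the filter. RAB16A (LOC_Os11g26790), a dehydrin known as an ABA-responsive gene of rice, had 597, 295 and 3198 TPM under severe drought, against 0.271, 1.91 and 1.33 TPM under normal water. RAB16A differed by 8.66 ± 0.85 (adjusted p = 0.00043) and had the second-largest rise among called genes of at least 10 TPM without overlap between groups. RAB16B (LOC_Os11g26780) had 126, 63.3 and 1129 TPM under severe drought, against 0.354, 0.976 and 0.618 TPM under normal water, a rise of 7.01 ± 0.99 (adjusted p = 0.00165). RAB16C (LOC_Os11g26760) had 35.9, 21.3 and 319 TPM under severe drought, against 4.08, 4.59 and 4.88 TPM under normal water, a rise of 3.54 ± 0.93 (adjusted p = 0.0179). These 3 genes lie close together on chromosome 11, between 15327768 and 15343857 in the files' coordinates, and as close relatives may share reads. LIP9 (LOC_Os02g44870), another dehydrin, had 151, 81.6 and 717 TPM under severe drought, against 29.6, 38.7 and 40.3 TPM under normal water. LIP9 rose by 2.50 ± 0.74 (adjusted p = 0.0274), less than the RAB16 genes, with a higher level under normal water. Leaving out any one of the normal libraries ended the calls of RAB16C, at 3.48 to 3.59 (adjusted p = 0.0548 to 0.0577), and of LIP9, at 2.36 to 2.58 (adjusted p = 0.0719 to 0.0853). LIP9 passed with a smaller value without severe replicate 3, 1.61 (adjusted p = 0.00844). For every one of these dehydrins severe replicate 3 was the highest library, by 2.93 for RAB16A, 3.65 for RAB16B, 3.48 for RAB16C and 2.68 for LIP9 on the log2 scale over the mean of the other 2. RAB16D, RAB25 and the LEA gene Em did not reach the filter.

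LEA3-1 (LOC_Os05g46480), a LEA protein known for drought tolerance when overexpressed, had 285, 183 and 1092 TPM under severe drought, against 0.152, 0.605 and 0.634 TPM under normal water. It rose by 8.06 ± 0.63 (adjusted p = 0.000193). LEA3-2 (LOC_Os03g20680) stayed low, with 5.10, 4.52 and 6.23 TPM under severe drought, against 0.106, 0.174 and 0 TPM under normal water, and rose by 2.52 ± 0.14 (adjusted p = 7.89e-05) with the 3 severe libraries close together. SalT (LOC_Os01g24710), a lectin-like protein first found under salt stress, had 136, 56.9 and 686 TPM under severe drought, against 0.327, 0.782 and 0.499 TPM under normal water. SalT rose by 6.85 ± 0.83 (adjusted p = 0.000921), and like LEA3-1 and LEA3-2 it passed the filter only through severe drought. Summed over the 6 listed dehydrin genes, the libraries held 912, 462 and 5378 TPM under severe drought, against 34.5, 46.6 and 47.6 TPM under normal water. Under moderate drought (about 20% relative soil water) the same sum was 570.5, 817 and 471 TPM, which is within the range of severe replicates 1 and 2 and below severe replicate 3.

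**Figure D2:**
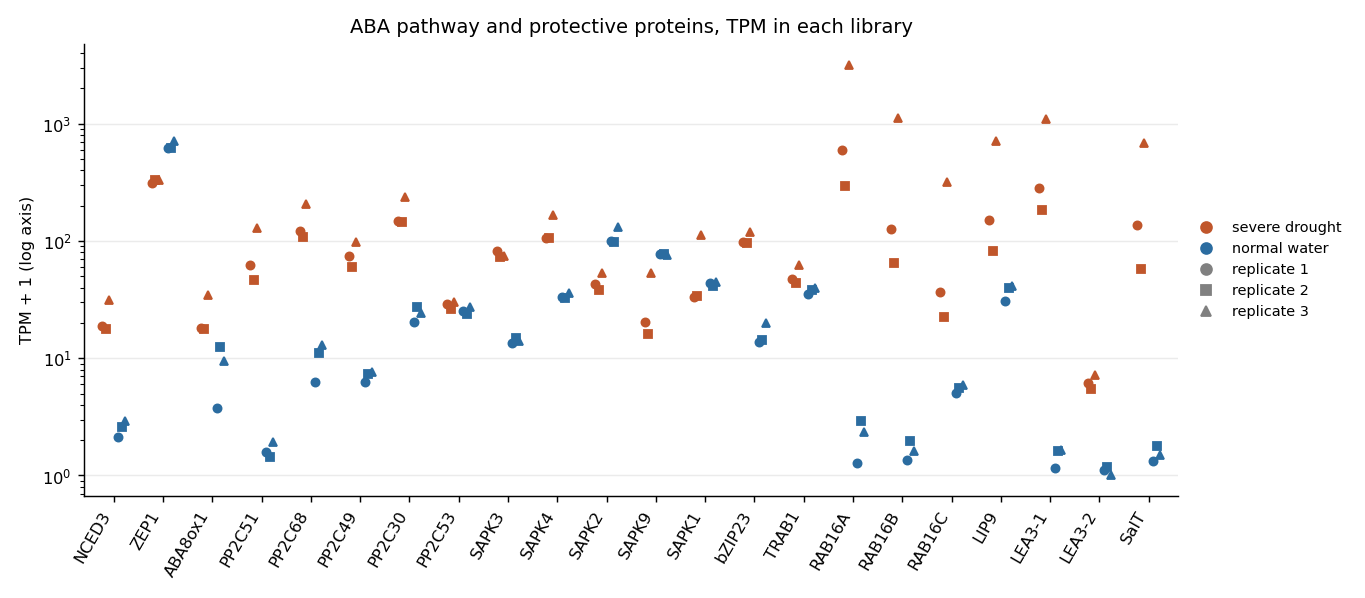
Points give TPM + 1 on a log axis for genes of the ABA pathway and of protective proteins, with severe drought left of normal water in each column and a marker shape per replicate. PP2C51, RAB16A, LEA3-1 and SalT lie far above normal in every severe library, with replicate 3 the highest, while SAPK2 and SAPK9 lie below normal.

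Stress NAC transcription factors changed less. Of 4 tested, 2 rose and 1 fell, beside 38.0% and 19.2% of all tested genes. NAC5 (LOC_Os11g08210) had 81.4, 72.1 and 95.4 TPM under severe drought, against 37.4, 42.4 and 46.4 TPM under normal water, a rise of 0.96 ± 0.14 (adjusted p = 0.00161), and NAC2 (LOC_Os04g38720) rose by 0.81 ± 0.17 (adjusted p = 0.00746). NAC3 (LOC_Os07g12340) had 13.3, 13.9 and 8.22 TPM under severe drought, against 30.8, 43.9 and 52.1 TPM under normal water. NAC3 fell by 1.76 ± 0.26 (adjusted p = 0.00181). The DREB factors, which bind dehydration-responsive promoters, split by gene. Of 5 tested, 1 rose and 2 fell, near the 57.1% of all tested genes called in either direction. DREB1A (LOC_Os09g35030) had 1.84, 2.01 and 1.72 TPM under severe drought, against 7.42, 29.9 and 20.8 TPM under normal water, and DREB1B (LOC_Os09g35010) had 1.36, 2.13 and 1.21 TPM under severe drought, against 2.33, 31.3 and 22.7 TPM under normal water. Both fell, DREB1A by 2.64 ± 0.45 (adjusted p = 0.00343) and DREB1B by 2.43 ± 0.82 (adjusted p = 0.0426), and in both normal replicate 1 lay well under the other 2 normal libraries. The DREB1B call was lost without severe replicate 3, at -2.33 (adjusted p = 0.185), and without severe replicate 1, severe replicate 2, normal replicate 2 or normal replicate 3, at -2.58 to -1.81 (adjusted p = 0.0697 to 0.137). DREB1C (LOC_Os06g03670) had 4.65, 4.20 and 23.5 TPM under severe drought, against 0.125, 1.64 and 0.927 TPM under normal water, and rose by 2.33 ± 0.65 (adjusted p = 0.0215), a call lost without normal replicate 1, at 1.99 (adjusted p = 0.0751), or normal replicate 3, at 2.38 (adjusted p = 0.0627). DREB2A (LOC_Os01g07120) had 8.85, 7.23 and 23.2 TPM under severe drought, against 5.42, 4.68 and 5.59 TPM under normal water. Its difference of 1.01 ± 0.39 (adjusted p = 0.0655) did not pass, though it did without severe replicate 3, at 0.53 (adjusted p = 0.00552). DREB2A overlaps a gene model on the other strand.

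Proline is a solute that plants build up under water deficit. P5CS1 (LOC_Os05g38150), the first and limiting enzyme of proline synthesis from glutamate, had 91.8, 86.0 and 108 TPM under severe drought, against 15.1, 14.9 and 16.5 TPM under normal water. P5CS1 rose by 2.54 ± 0.11 (adjusted p = 4.44e-05) with a narrow spread in both groups. OAT (LOC_Os03g44150), an ornithine aminotransferase, had 74.1, 67.5 and 171 TPM under severe drought, against 19.3, 20.2 and 25.8 TPM under normal water, and rose by 2.09 ± 0.35 (adjusted p = 0.00336). P5CS2 (LOC_Os01g62900) had 7.11, 6.57 and 39.4 TPM under severe drought, against 5.62, 5.19 and 6.34 TPM under normal water, so that severe replicate 3 alone was far from normal, and its difference of 1.02 ± 0.63 (adjusted p = 0.209) did not pass. Without that library it was 0.23 (adjusted p = 0.111). P5CS2 overlaps a gene model on the other strand.

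Aquaporins, the water channels, fell in the tested genes of the tonoplast and moved both ways at the plasma membrane. Of 7 tonoplast intrinsic protein (TIP) genes, 4 were tested and all 4 fell, beside 19.2% of all tested genes. Their median was -0.99, against 0.21 over all tested genes. Among those under the filter, TIP3;1 and TIP3;2 were higher in every severe library, at most 2.31 and 1.02 TPM, and TIP2;1 overlapped between groups. TIP1;2 (LOC_Os01g74450) had 506, 564 and 352 TPM under severe drought, against 1223, 1311 and 1428 TPM under normal water, and fell by 1.501 ± 0.20 (adjusted p = 0.00116). TIP4;1 (LOC_Os05g14240) had 386, 332 and 296 TPM under severe drought, against 616, 621 and 618 TPM under normal water, and fell by 0.88 ± 0.13 (adjusted p = 0.00173). TIP1;1 (LOC_Os03g05290) fell by 1.10 ± 0.37 (adjusted p = 0.0428) and TIP2;2 (LOC_Os06g22960) by 0.70 ± 0.18 (adjusted p = 0.0142), and severe replicate 3 was the lowest library for each of the 4. The TIP1;1 call was lost without severe replicate 1, at -1.29 (adjusted p = 0.0507), or any one of the normal libraries, at -1.14 to -1.08 (adjusted p = 0.0974 to 0.112). TIP1;1 passed with a smaller value without severe replicate 3, -0.65 (adjusted p = 0.000199). TIP2;2 was lost without normal replicate 1, at -0.65 (adjusted p = 0.0572), or normal replicate 2, at -0.64 (adjusted p = 0.0578). Of 11 plasma membrane intrinsic protein (PIP) genes, 9 were tested, 4 rose and 3 fell, against 38.0% and 19.2% of all tested genes. After median-of-ratios scaling 2 rose and 4 fell, and after quantile normalization 3 rose and 3 fell. PIP2;1 (LOC_Os07g26690) rose by 0.38 ± 0.09 (adjusted p = 0.0127) but lost its call under both, at 0.15 (adjusted p = 0.248) after quantile normalization and 0.15 (adjusted p = 0.235) after median-of-ratios scaling. It was also lost without normal replicate 1 or normal replicate 2, at 0.37 in each case (adjusted p = 0.0533 and 0.0558). PIP2;6 (LOC_Os04g16450) had 47.3, 37.8 and 52.5 TPM under severe drought, against 9.02, 6.32 and 7.49 TPM under normal water, a rise of 2.44 ± 0.17 (adjusted p = 0.000126). PIP1;1 (LOC_Os02g44630) rose by 1.08 ± 0.29 (adjusted p = 0.0179), a call lost after median-of-ratios scaling, at 0.85 (adjusted p = 0.0562), and on leaving out severe replicate 1, normal replicate 1 or normal replicate 3, at 0.92 to 1.0 (adjusted p = 0.0568 to 0.0675). PIP2;4 (LOC_Os07g26630) had 0.376, 0.688 and 0.154 TPM under severe drought, against 7.29, 9.55 and 9.81 TPM under normal water, and PIP2;5 (LOC_Os07g26660) had 0.0862, 0.111 and 0.112 TPM under severe drought, against 3.16, 4.32 and 4.04 TPM under normal water. Both genes were near 0 in all severe libraries and fell by 2.82 ± 0.18 (adjusted p = 0.000112) and 2.13 ± 0.12 (adjusted p = 9.19e-05). They were under 1 TPM in every severe library and passed the filter only through normal water. The count of PIP genes that fell is therefore not independent of the filter. The most abundant member, PIP2;7 (LOC_Os09g36930), had 1937, 1881 and 734 TPM under severe drought, against 2909, 2845 and 2807 TPM under normal water. Its difference of -1.04 ± 0.38 (adjusted p = 0.0547) did not pass, with severe replicate 3 far below the other severe libraries, and without that library it passed at -0.58 (adjusted p = 0.000162).

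Sugar carriers rose or did not pass with all 6 libraries. Of 10 listed, 7 were tested, 4 rose and none fell, so that the share called, 57.1%, equalled that of all tested genes. After quantile normalization 2 fell and after median-of-ratios scaling 1 did. SWEET13 (LOC_Os12g29220), a sucrose exporter, had 65.1, 55.1 and 126 TPM under severe drought, against 1.32, 1.64 and 1.43 TPM under normal water. SWEET13 rose by 4.98 ± 0.30 (adjusted p = 9.63e-05). SWEET15 (LOC_Os02g30910), of the same family, had 16.7, 15.0 and 39.6 TPM under severe drought, against 0, 0.184 and 0.0873 TPM under normal water, and rose by 4.38 ± 0.35 (adjusted p = 0.000214), so that both were low in normal seedlings. SWEET15 passed the filter only through severe drought, so its place in the count of rises is not independent of the filter. A further member of that family, SWEET14 (LOC_Os11g31190), had 3.55, 3.52 and 3.58 TPM under severe drought, against 1.58, 1.36 and 1.51 TPM under normal water, and rose by 0.88 ± 0.10 (adjusted p = 0.000657). SUT1 (LOC_Os03g07480), a sucrose importer of the phloem, had 132, 131 and 139 TPM under severe drought, against 48.9, 52.7 and 50.2 TPM under normal water. SUT1 rose by 1.39 ± 0.08 (adjusted p = 9.51e-05), and its severe libraries, replicate 3 included, were close together. SUT2 (LOC_Os12g44380) and SWEET4 (LOC_Os02g19820) did not pass at -0.29 ± 0.20 (adjusted p = 0.256) and -0.42 ± 0.15 (adjusted p = 0.0507), and each passed as lower without severe replicate 3, at -0.51 (adjusted p = 0.000507) and -0.58 (adjusted p = 0.000139).

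Genes of the photosynthetic antenna, which gathers light for photosystem II, fell in most cases. Of 4 that could be identified by name, 3 fell, beside 19.2% of all tested genes, and the median was -1.35 against 0.21 over all tested genes. CAB2R (LOC_Os01g41710), a chlorophyll a/b-binding protein, had 1223, 1202 and 669 TPM under severe drought, against 5781, 5250.3 and 4006 TPM under normal water. CAB2R fell by 2.32 ± 0.28 (adjusted p = 0.000911). LHCB4 (LOC_Os07g37240) had 2312, 2644 and 776 TPM under severe drought, against 6078, 5565 and 4465 TPM under normal water, and fell by 1.66 ± 0.47 (adjusted p = 0.0227). LHCB2 (LOC_Os03g39610) had 2084, 2295 and 931 TPM under severe drought, against 3829, 3422 and 2877 TPM under normal water, and fell by 1.03 ± 0.36 (adjusted p = 0.0469), a call lost after quantile normalization at -0.47 (adjusted p = 0.236), where 2 of the 4 fell. LHCB2 was also lost without severe replicate 1, at -1.2 (adjusted p = 0.0571), or any one of the normal libraries, at -1.14 to -0.93 (adjusted p = 0.0848 to 0.136). LHCB2 passed with a smaller value without severe replicate 3, -0.62 (adjusted p = 0.00274). LHCB4 was lost without any one of the normal libraries, at -1.79 to -1.57 (adjusted p = 0.054 to 0.0757), and was -1.11 (adjusted p = 0.000275) without severe replicate 3. CAB1R (LOC_Os09g17740), the most abundant of the 4, had 7269.8, 7705 and 3997 TPM under severe drought, against 9706, 9167 and 8803 TPM under normal water. Its difference of -0.60 ± 0.28 (adjusted p = 0.106) did not pass, although no severe value reached a normal one, and it passed without severe replicate 3 at -0.30 (adjusted p = 0.0116). Severe replicate 3 was the lowest library for all 4. RCA (LOC_Os11g47970), the activase that keeps Rubisco working, had 2075, 2629 and 929 TPM under severe drought, against 1963, 2175 and 1939.8 TPM under normal water, so that only severe replicate 3 was below normal, and the difference of -0.24 ± 0.38 (adjusted p = 0.617) did not pass.

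Genes of chlorophyll breakdown rose in most cases. Of 4, all tested, 3 rose and NYC1 did not pass, with a median of 2.23 against 0.21 over all tested genes, of which 38.0% rose. SGR (LOC_Os09g36200), the STAY-GREEN protein that takes magnesium out of chlorophyll, had 91.2, 74.7 and 480.5 TPM under severe drought, against 14.7, 15.6 and 28.2 TPM under normal water. SGR rose by 2.93 ± 0.71 (adjusted p = 0.0129). NOL (LOC_Os03g45194), a chlorophyll b reductase, had 49.3, 47.0 and 123 TPM under severe drought, against 11.8, 11.8 and 11.0 TPM under normal water, and rose by 2.42 ± 0.36 (adjusted p = 0.00199). RCCR1 (LOC_Os10g25030), which reduces the red breakdown product of chlorophyll, had 169, 147 and 311 TPM under severe drought, against 41.2, 41.6 and 61.2 TPM under normal water, and rose by 2.04 ± 0.31 (adjusted p = 0.00205). NYC1 (LOC_Os01g12710), the other chlorophyll b reductase, behaved unlike them across replicates. NYC1 had 296, 258 and 1022 TPM under severe drought, against 549, 634 and 559 TPM under normal water, which put severe replicates 1 and 2 below and severe replicate 3 above every normal library. Its value over all libraries was -0.44 ± 0.51 (adjusted p = 0.49), and without severe replicate 3 it fell with a log2 fold change of -1.06 (adjusted p = 2.9e-05).

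Genes of nitrogen assimilation fell or did not pass. GS2 (LOC_Os04g56400), the chloroplast glutamine synthetase that takes up ammonium from photorespiration, had 544, 642 and 337 TPM under severe drought, against 1688, 1623 and 1617 TPM under normal water. GS2 fell by 1.74 ± 0.24 (adjusted p = 0.00149). Fd-GOGAT (LOC_Os07g46460), the ferredoxin-dependent glutamate synthase that works with it, had 454, 506 and 317 TPM under severe drought, against 1273, 1257 and 1506 TPM under normal water, and fell by 1.68 ± 0.20 (adjusted p = 0.000807). NIA1 (LOC_Os08g36480), a nitrate reductase, had 49.2, 48.4 and 49.2 TPM under severe drought, against 167, 148 and 338 TPM under normal water. NIA1 fell by 2.03 ± 0.30 (adjusted p = 0.00194), with normal replicate 3 well above the other normal libraries. The cytosolic glutamine synthetases GS1;1 (LOC_Os02g50240) and GS1;2 (LOC_Os03g12290) did not pass, at -0.15 ± 0.19 (adjusted p = 0.528) and 0.59 ± 0.39 (adjusted p = 0.232). Without severe replicate 3, GS1;1 passed as lower at -0.32 (adjusted p = 0.0492), so that 4 of the 5 fell, and GS1;2 was 0.11 (adjusted p = 0.251). Of these 5 genes 3 fell and none rose, against 19.2% and 38.0% of all tested genes.

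**Figure D3:**
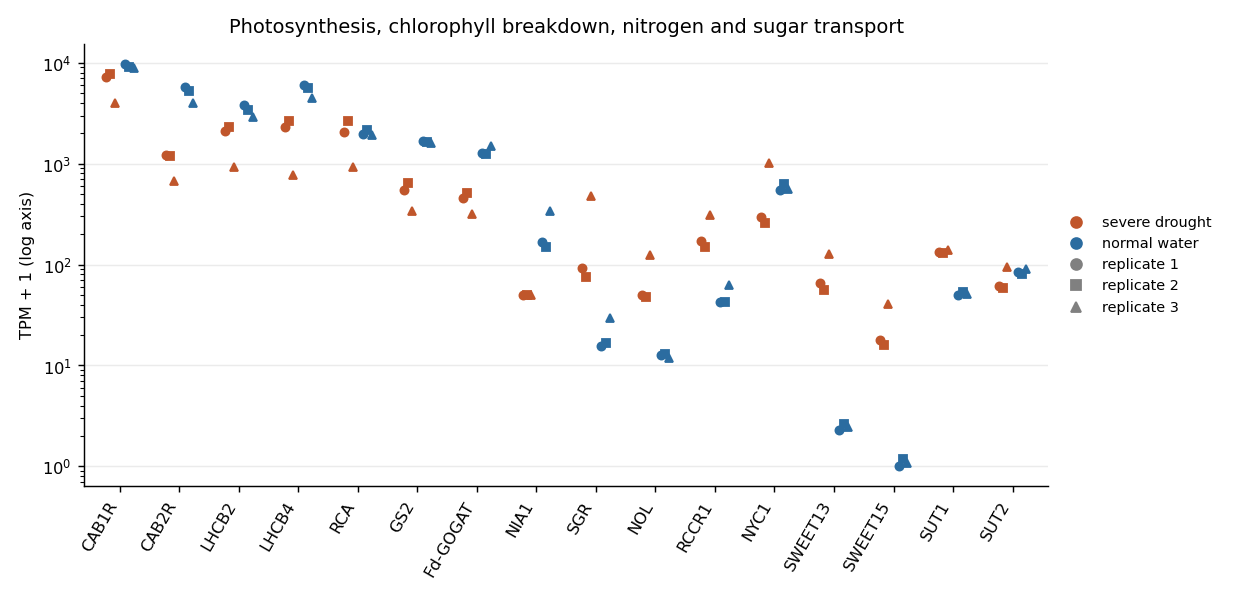
Points give TPM + 1 on a log axis for genes of photosynthesis, nitrogen assimilation, chlorophyll breakdown and sugar transport, severe drought left of normal water, with a marker shape per replicate. CAB2R, GS2 and Fd-GOGAT lie below normal and SGR, NOL, RCCR1 and SWEET13 above it in every severe library, and NYC1 has severe replicates 1 and 2 below and 3 above normal.

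Cellulose synthases differed by gene. CESA4, CESA7 and CESA9 form the complex of the secondary wall, and CESA1, CESA3 and CESA8 are known from the primary wall. CESA9 (LOC_Os09g25490) had 21.9, 28.1 and 12.4 TPM under severe drought, against 3.09, 2.28 and 2.35 TPM under normal water, a rise of 2.55 ± 0.28 (adjusted p = 0.000676). CESA7 (LOC_Os10g32980) had 22.8, 33.6 and 13.7 TPM under severe drought, against 3.36, 3.30 and 2.59 TPM under normal water, a rise of 2.50 ± 0.30 (adjusted p = 0.000913), and CESA4 (LOC_Os01g54620) had 23.3, 32.0 and 13.0 TPM under severe drought, against 4.26, 5.11 and 3.94 TPM under normal water, a rise of 2.05 ± 0.31 (adjusted p = 0.00198). In these 3 genes severe replicate 3 was the severe library nearest to normal. CESA3 (LOC_Os07g24190) had 21.6, 19.6 and 17.5 TPM under severe drought, against 35.5, 30.1 and 36.3 TPM under normal water, and fell by 0.77 ± 0.12 (adjusted p = 0.00221), while CESA1 (LOC_Os05g08370) at -0.45 ± 0.26 (adjusted p = 0.177) and CESA8 (LOC_Os07g10770) at -0.42 ± 0.21 (adjusted p = 0.138) did not pass. CESA2 (LOC_Os03g59340), which overlaps a gene model on the other strand, rose by 1.22 ± 0.18 (adjusted p = 0.00187). Over all 9, 4 rose and 1 fell, a share called of 55.6% beside 57.1% of all tested genes, and the median was -0.05 against 0.21. After either other scaling 2 fell.

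JAZ proteins repress jasmonate responses and are themselves induced by jasmonate. Of 13, 11 were tested, 9 rose and none fell, against 38.0% and 19.2% of all tested genes, with a median of 1.80 against 0.21. Among the 9, JAZ5 and JAZ13 were under 1 TPM in every normal library and passed the filter only through severe drought. The count and the median therefore depend in part on the filter. JAZ11 (LOC_Os03g08320) had 26.6, 18.5 and 150.2 TPM under severe drought, against 0.793, 1.31 and 0.740 TPM under normal water, a rise of 4.49 ± 0.73 (adjusted p = 0.00284). JAZ12 (LOC_Os10g25290) had 33.6, 35.8 and 93.8 TPM under severe drought, against 2.06, 2.67 and 3.22 TPM under normal water, a rise of 3.77 ± 0.39 (adjusted p = 0.000519). JAZ8 (LOC_Os09g26780) had 32.0, 30.6 and 148 TPM under severe drought, against 11.0, 12.5 and 12.7 TPM under normal water, with severe replicate 3 far above the other severe libraries, and rose by 2.05 ± 0.59 (adjusted p = 0.0241). The JAZ8 call was lost without any one of the normal libraries, at 1.99 to 2.08 (adjusted p = 0.0671 to 0.0742). JAZ8 passed with a smaller value without severe replicate 3, 1.31 (adjusted p = 7.87e-06). JAZ10 (LOC_Os03g08330) rose by 2.04 ± 0.47 (adjusted p = 0.011). JAZ4 (LOC_Os09g23660) varied within both groups, with 5.83, 63.1 and 22.3 TPM under severe drought, against 2.65, 35.4 and 41.1 TPM under normal water, and did not pass at 0.29 ± 1.17 (adjusted p = 0.847). JAZ4 overlaps a gene model on the same strand. In the synthesis of jasmonate, OPR7 (LOC_Os08g35740), the reductase that acts on its precursor OPDA, had 53.3, 51.1 and 52.6 TPM under severe drought, against 30.5, 29.5 and 32.7 TPM under normal water, and rose by 0.74 ± 0.08 (adjusted p = 0.000629). AOS1 (LOC_Os03g55800), an allene oxide synthase at an earlier step, fell by 0.50 ± 0.13 (adjusted p = 0.0161), a call lost on leaving out severe replicate 1, normal replicate 2 or normal replicate 3, at -0.48 to -0.46 (adjusted p = 0.0525 to 0.0652), and AOC (LOC_Os03g32314) did not pass at 0.20 ± 0.14 (adjusted p = 0.252). AOC passed as higher without severe replicate 3, at 0.35 (adjusted p = 0.0028).

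Genes of the circadian clock fell or did not pass. Of 8, all tested, 4 fell and none rose, against 19.2% and 38.0% of all tested genes, with a median of -0.58 against 0.21. LUX (LOC_Os01g74020), a part of the evening complex, had 31.8, 29.0 and 97.4 TPM under severe drought, against 303, 340.1 and 352 TPM under normal water. LUX fell by 2.85 ± 0.44 (adjusted p = 0.00236), with severe replicate 3 nearest to normal. PRR73 (LOC_Os03g17570) had 214, 212 and 187 TPM under severe drought, against 392, 365 and 394 TPM under normal water, and fell by 0.91 ± 0.10 (adjusted p = 0.000671). PRR37 (LOC_Os07g49460) fell by 0.86 ± 0.12 (adjusted p = 0.00138) and PRR95 (LOC_Os09g36220) by 0.52 ± 0.12 (adjusted p = 0.00928). GI (LOC_Os01g08700) had 517, 493 and 533 TPM under severe drought, against 512, 498 and 539 TPM under normal water, which overlapped, with a difference of -0.0045 ± 0.10 (adjusted p = 0.973). The hours at which plants were harvested are not given in the labels. LHY (LOC_Os08g06110), a morning gene, did not pass at -0.65 ± 0.23 (adjusted p = 0.0515) and passed without severe replicate 3 at -0.92 (adjusted p = 3e-05). Without that library 7 of the 8 clock genes fell, and 7 also fell after quantile normalization and after median-of-ratios scaling. Of all 20222 tested genes, 4704, 5672 and 5516 fell in these fits, against 3877 in the fit reported.

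**Figure D4:**
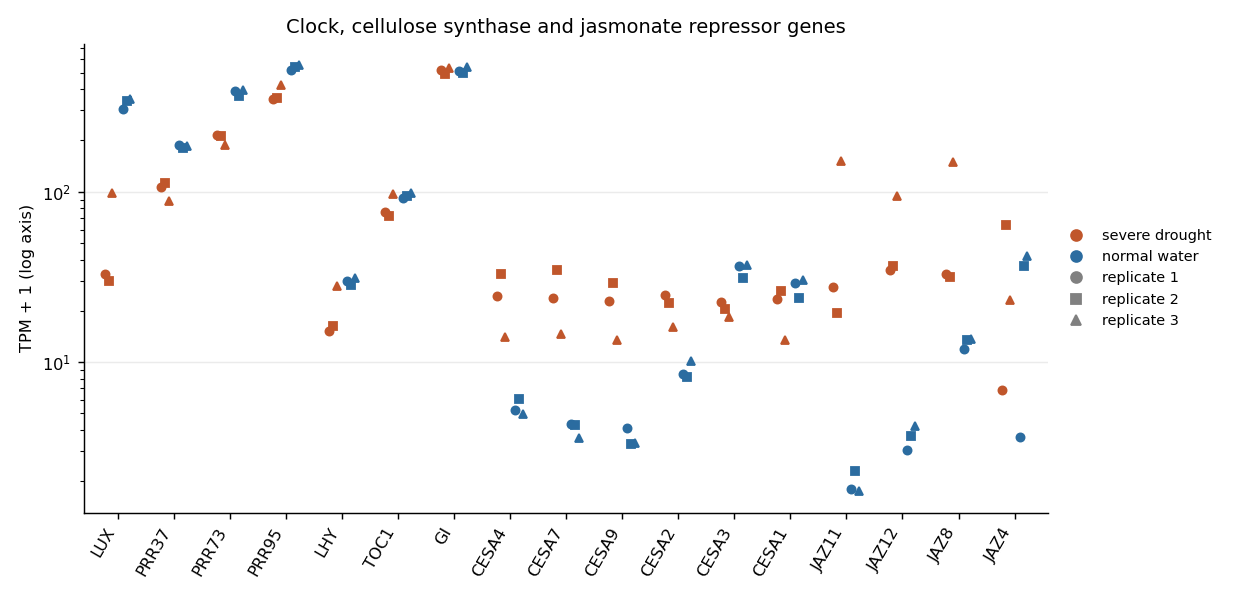
Points give TPM + 1 on a log axis for clock, cellulose synthase and jasmonate repressor genes, severe drought left of normal water, with a marker shape per replicate. LUX lies below normal in every severe library, CESA4, CESA7, CESA9, JAZ11 and JAZ12 above it, and GI overlaps between groups.

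Enzymes that remove reactive oxygen differed by gene. Of 12 listed, 11 were tested, 4 rose and 1 fell. The share called, 45.5%, was below the 57.1% of all tested genes. Without severe replicate 3, 5 rose and 3 fell; after median-of-ratios scaling 4 rose and 4 fell, and after quantile normalization 4 rose and 2 fell. The superoxide dismutase SodCc2 (LOC_Os07g46990) had 745, 655 and 1137 TPM under severe drought, against 232, 235 and 247 TPM under normal water, a rise of 1.78 ± 0.21 (adjusted p = 0.000798). SodA (LOC_Os05g25850), the manganese superoxide dismutase of mitochondria, had 389.5, 366 and 459 TPM under severe drought, against 134, 133 and 152 TPM under normal water, and rose by 1.52 ± 0.12 (adjusted p = 0.00021), and SodCp (LOC_Os08g44770), the copper-zinc enzyme of plastids, rose by 1.05 ± 0.10 (adjusted p = 0.000436). Its cytosolic relative SodCc1 (LOC_Os03g22810) was at 310.0, 323 and 308 TPM under severe drought, against 309, 318 and 332 TPM under normal water, and differed by -0.03 ± 0.09 (adjusted p = 0.822). The ascorbate peroxidase APX1 (LOC_Os03g17690) rose by 0.93 ± 0.10 (adjusted p = 0.000592), and APX8 (LOC_Os02g34810), of the thylakoid, had 326, 335 and 239 TPM under severe drought, against 608, 623 and 569 TPM under normal water, and fell by 1.01 ± 0.15 (adjusted p = 0.00212).

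Metallothioneins, small cysteine-rich proteins that bind metals, held the steepest fall among listed genes. MT2B (LOC_Os01g74300) had 33.4, 37.9 and 10.1 TPM under severe drought, against 1644, 1645 and 1414 TPM under normal water. MT2B fell by 5.99 ± 0.46 (adjusted p = 0.00019). Its relatives rose, with MT2C (LOC_Os05g02070) at 449, 427 and 384 TPM under severe drought, against 89.0, 81.8 and 70.1 TPM under normal water, a rise of 2.38 ± 0.12 (adjusted p = 7.1e-05). MT1a (LOC_Os11g47809) rose by 1.26 ± 0.24 (adjusted p = 0.00534). MT2a (LOC_Os01g05650), the most abundant of the 4 in every library, had 4932, 4758 and 7046 TPM under severe drought, against 2873, 3109 and 2997 TPM under normal water, and rose by 0.88 ± 0.19 (adjusted p = 0.00886).

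The E3 ligases of H2B and the repressor MODD were examined in every library because the series measures H2B monoubiquitination (H2Bub1). HUB1 and HUB2 together place ubiquitin on histone H2B, and MODD is known in rice as a repressor of ABA signalling and of OsbZIP46. HUB1 (LOC_Os04g46450) had 43.1, 41.2 and 45.5 TPM under severe drought, against 45.8, 47.7 and 55.3 TPM under normal water. HUB1 was lower in all 3 severe libraries, but the difference of -0.19 ± 0.10 (adjusted p = 0.154) did not pass, and it passed as lower after quantile normalization at -0.44 (adjusted p = 0.00427) and after median-of-ratios scaling at -0.42 (adjusted p = 0.00547). HUB2 (LOC_Os10g41590) had 38.1, 39.1 and 42.8 TPM under severe drought, against 55.0, 53.6 and 58.4 TPM under normal water, and fell by 0.47 ± 0.09 (adjusted p = 0.00493). MODD (LOC_Os03g11550) had 12.8, 9.59 and 29.1 TPM under severe drought, against 5.26, 6.46 and 5.53 TPM under normal water, a rise of 1.28 ± 0.37 (adjusted p = 0.0244), with severe replicate 3 the highest, and the call was lost without any one of the normal libraries, at 1.23 to 1.36 (adjusted p = 0.0588 to 0.0766). MODD passed with a smaller value without severe replicate 3, 0.85 (adjusted p = 0.00097).

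The authors' deposited table of H2Bub1 regions that differ between severe drought and normal water holds 886 regions of 500 bases. Of these, 93 are higher and 793 lower under severe drought, and the table combines replicates into 1 value per condition. Among 82 tested genes assigned to a higher region, RNA rose for 43 (52.4%) and fell for 9 (11.0%). Among 746 tested genes assigned to a lower region, RNA rose for 205 (27.5%) and fell for 196 (26.3%), against 38.0% and 19.2% of all tested genes. The median log2 fold change of RNA was 0.42 for genes of higher regions and 0.04 for genes of lower regions, against 0.21 for all tested genes. Without the filter on low values, the median for genes of lower regions no longer lay under that of all genes, with a difference of 0.02 in place of -0.17. These groups were also unlike in level, with a median normal TPM of 11.2 for genes of higher regions and 18.6 for genes of lower regions, against 12.3 for all, and the part of level in the result was not tested. Of the listed genes, 8 had a region, all lower in the authors' deposited table. RNA rose for 6 of them (PP2C06, PP2C08, JAZ6, SodCp, CESA2 and bZIP23), fell for HUB2 and did not pass for CESA1. Over all 146 tested listed genes, 68 rose and 32 fell. The PP2C08 call was lost after quantile normalization and after median-of-ratios scaling. The region of bZIP23 in the authors' deposited table lies at chromosome 2 from 32280132 to 32280631, 1022 bases from the transcription start, and has a log2 fold change of -1.17 and an FDR of 0.0173. The RNA of bZIP23 rose, and so did that of PP2C06 (LOC_Os01g40094), by 1.78 ± 0.15 (adjusted p = 0.000269), whose region in the authors' deposited table had a log2 fold change of -1.12. HUB2 was lower in both readouts, with a region in the authors' deposited table at -1.05.

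Severe replicate 3 stood apart from the other severe libraries to an unlike extent across the lists. On the log2 scale over the mean of severe replicates 1 and 2, the median of its tested dehydrins was 3.20, of chlorophyll breakdown 1.61 and of jasmonate repressors 0.97. The median was -1.07 for the photosystem II antenna, -0.70 for cellulose synthases and -0.54 for tonoplast aquaporins. Other lists also stood apart, with medians of 1.29 for the other LEA proteins and 1.26 for proline metabolism. SalT, RCA and PBZ1, each the only gene of its list, differed by 2.95, -1.33 and -1.30. Over all tested genes this library's median difference was -0.0047. Without it the medians over severe minus normal were 4.09 for dehydrins, 1.85 for chlorophyll breakdown and -0.86 for the antenna, each with the sign it had with all 6 libraries. Of 2664 genes at least 1 log2 unit above normal in the mean of severe replicates 1 and 2, severe replicate 3 was at least 1 higher still for 439 and at least 1 lower for 96. Of 1518 genes at least 1 below normal in those libraries, it was at least 1 lower still for 126 and at least 1 higher for 86. It lay further from normal in the same direction, by any amount, for 1252 of the 2664 and 931 of the 1518. Of 16040 genes within 1 of normal, it was at least 1 higher for 643 and at least 1 lower for 286. Over all 20222 tested genes these counts were 1168 and 508.

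**Figure D5:**
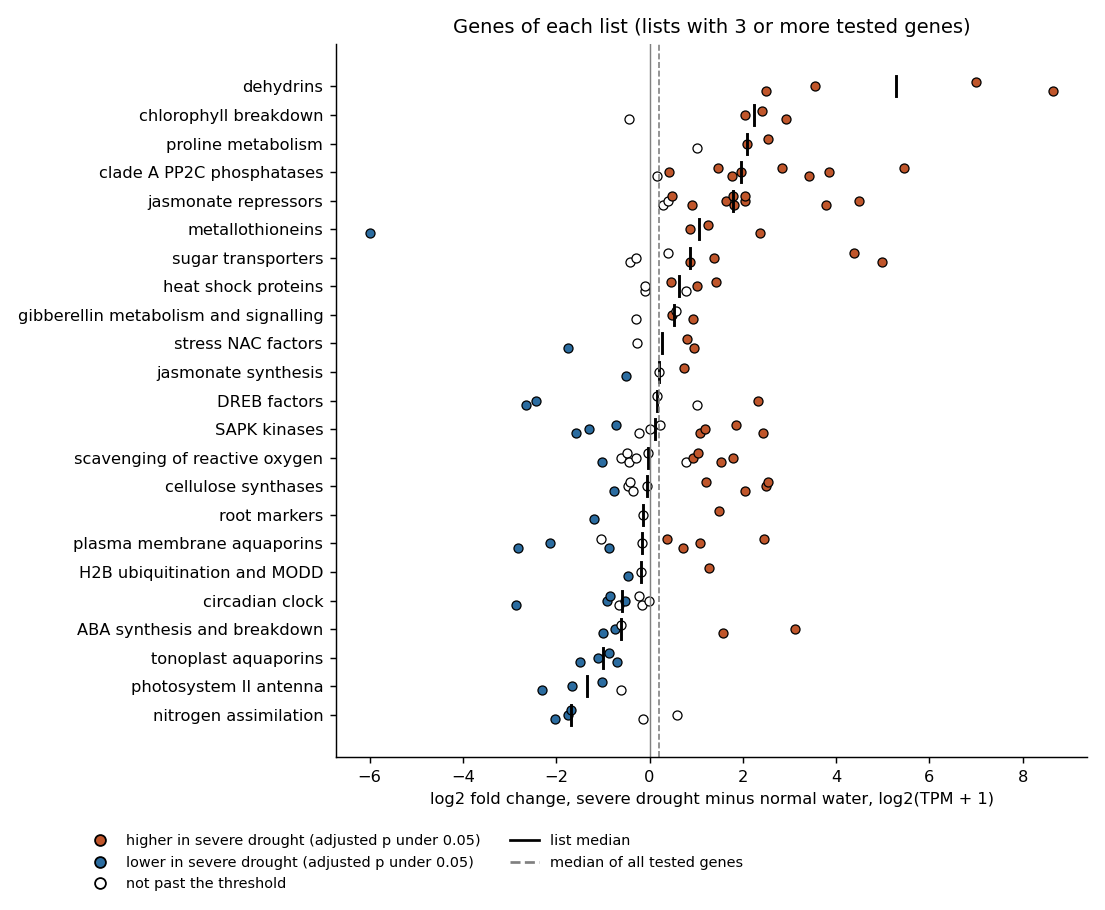
Each point is a tested gene of a list with 3 or more tested genes, placed by its log2 fold change, severe drought minus normal water, and filled where it passed the threshold; black bars are list medians and the dashed line is the median of all tested genes, 0.21. Dehydrins lie farthest right with a median of 5.27, nitrogen assimilation and the photosystem II antenna farthest left, and MT2B stands alone at -5.99.

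Markers of other tissues and of infection were followed in the same libraries. Of the root markers, Lsi1 (LOC_Os02g51110), a silicon channel, had 12.8, 15.1 and 21.7 TPM under severe drought, against 17.5, 18.7 and 17.38 TPM under normal water, a difference of -0.14 ± 0.19 (adjusted p = 0.557) that did not pass. It passed as lower without severe replicate 3, at -0.34 (adjusted p = 0.013), where 2 of the 3 tested root markers fell. The iron transporter IRT1 (LOC_Os03g46470) had 0.217, 0.122 and 0.124 TPM under severe drought, against 1.45, 1.84 and 1.67 TPM under normal water, and fell by 1.199 ± 0.11 (adjusted p = 0.000287), and the sodium transporter HKT2;1 (LOC_Os06g48810) had 2.67, 2.37 and 1.45 TPM under severe drought, against 0.109, 0.0877 and 0.146 TPM under normal water, and rose by 1.48 ± 0.17 (adjusted p = 0.000658). IRT1 overlaps a gene model on the other strand. IRT1 was under 1 TPM in every severe library and HKT2;1 in every normal one. IRT1 therefore passed the filter only through normal water, and HKT2;1 only through severe drought. Lsi2 was at or near 0 in all 6 libraries. Summed over the 4 root markers the libraries held 15.7, 17.6 and 23.3 TPM under severe drought, against 19.1, 20.7 and 19.2 TPM under normal water. The meristem genes OSH1 and OSH15 were listed at 0 in all 6 libraries except OSH15 in severe replicate 3, at 0.0312 TPM. The antenna genes given above, which mark leaf mesophyll, were abundant in every library. PBZ1 (LOC_Os12g36880), a gene induced by pathogens, had 323, 558 and 172 TPM under severe drought, against 120.3, 213 and 477 TPM under normal water, which overlapped, and did not pass at 0.44 ± 0.60 (adjusted p = 0.554). Genes often used as constant references were not all constant, since ACT1 (LOC_Os03g50885) had 65.3, 71.3 and 79.8 TPM under severe drought, against 36.5, 37.9 and 41.2 TPM under normal water, and rose by 0.88 ± 0.11 (adjusted p = 0.000849), while GAPDH (LOC_Os04g40950) had 319, 322 and 224 TPM under severe drought, against 198, 201 and 269.6 TPM under normal water, and did not pass at 0.37 ± 0.20 (adjusted p = 0.151). Without severe replicate 3, GAPDH passed as higher at 0.54 (adjusted p = 0.0111).

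Beyond the lists, the largest changes among called genes of at least 10 TPM with no overlap between groups were found in genes that the tables used here do not pair with a name. LOC_Os01g68290, on chromosome 1 from 39679524 to 39680147, had 1533, 1174 and 2384 TPM under severe drought, against 0.0752, 1.25 and 2.31 TPM under normal water, a rise of 9.67 ± 0.45 (adjusted p = 5.3e-05). LOC_Os12g37415, on chromosome 12 from 22967916 to 22968353, had 409.6, 408 and 269 TPM under severe drought, against 0.184, 0.228 and 0.187 TPM under normal water, a rise of 8.22 ± 0.17 (adjusted p = 1.18e-05); it overlaps another gene model on the same strand. LOC_Os05g49240, on chromosome 5 from 28253514 to 28255081, had 0.717, 1.21 and 0.626 TPM under severe drought, against 1214, 1180.3 and 1302 TPM under normal water. It fell by 9.39 ± 0.13 (adjusted p = 2.77e-06) and overlaps a gene model on the other strand. LOC_Os07g26150, on chromosome 7 from 15033574 to 15033801, had 0, 0.105 and 0 TPM under severe drought, against 149, 107 and 227 TPM under normal water, and fell by 7.22 ± 0.26 (adjusted p = 3.22e-05). All 4 genes lay at or near 0 in one condition and above 100 TPM in the other, in every library.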

How the data were processed

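RNA was measured in 3 severe drought and 3 normal water libraries. Per the labels, mRNA from 10 µg of total RNA went into libraries of the TruSeq RNA kit. The authors' tables, per the file headers, hold TPM, FPKM and coverage for each gene, the last being a signal of mean depth per base that is not scaled to the library. The submitters' processing notes list HISAT2 2.0.5, DESeq2 1.20.0, Bowtie2 2.3.4 and MACS2 2.1.1 without saying what each did. The program that made the tables, the genome build and the use of strand are not given in the sources used here. Tables were matched on gene ID, and the rows of 1 ID listed more than once were summed.

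The 20222 genes that reached 1 TPM in 3 or more of the 6 libraries were tested on log2(TPM + 1), on which changes of low genes come out too small. The test was that of limma 3.58.1 (lmFit and eBayes, both trend and robust on; statmod 1.5.0; R 4.3.3), two-sided, fitted to these 6 libraries alone with no replicate block and checked on simulated data. P-values were adjusted by Benjamini-Hochberg over all tested genes, with 0.05 as the threshold. The comparison and the gene lists were chosen with earlier results of these data known. Of 236 listed genes in 34 lists, 167 in 31 lists were kept, because RefSeq (ASM3414082v1) gives the name on the same chromosome, with a shift in position within 100 kb of that of 1 of the 5 nearest listed genes or with a length within 1%. The other 69, OsbZIP46 among them, were not analysed here. Up to 4 called members of each list with the largest change were named, with HUB1, HUB2, MODD, and the marker and reference genes; further members were named after their values were seen. The rule for genes beyond the lists asks for a name, which no table used here gives for these IDs, so 2 IDs in each direction are given. The TPM of the 3 moderate drought libraries entered side values and 1 alternative, and their 6 other columns were not used. The log2 fold changes and FDR values (adjusted p-values) of H2Bub1 regions are the authors' own, per the file headers. Alternatives were another scaling, pseudocount, filter, unit, weighting, replicate block and set of libraries.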

Additional observations from a re-analysis of the deposited data

How the results depend on the processing

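The number of genes called stayed within 1.5 times of 11554 under every alternative run. It was 8616 to 13602 when 1 library was left out in turn, lowest without normal replicate 1 and highest without severe replicate 3. All 9 RNA libraries in the fit gave 12732 and FPKM in place of TPM gave 11853. No gene called in both the fit reported and the quantile, median-of-ratios, 9-library, weighted or blocked fit changed direction. Library weights by limma's default method, whose estimate did not converge, gave 16462 calls, and weights estimated gene by gene, added after that was seen, gave 14950, with severe replicate 3 weighted 0.107. Of the listed genes 86 to 121 were called with 1 library left out, against 100 with all 6. Some gene values reversed. SAPK1 ranged from -0.36 without severe replicate 3 to 0.51 without severe replicate 1, and was -0.35 with library weights. SAPK8 was -0.22 after quantile normalization and -0.21 after median-of-ratios scaling. PIP2;2 ranged from -0.39 without severe replicate 2 to 0.23 without severe replicate 3, and CESA5 was 0.19 and HSP17.7 0.23 with library weights. The cause was not tested. The median RNA difference of genes with a lower H2Bub1 region, minus that of all tested genes, was -0.17 and was 0.02 without the filter on low values; this alternative was chosen after seeing the data. With the replicate number as a block, 10989 genes were called, 7340 higher. Deviations of severe and normal libraries of the same number correlated at 0.131, -0.0218 and 0.149, so the numbers were not taken to pair the libraries, and severe replicate 2 correlated best with normal replicate 1, at 0.157. Depth was known only as implied bases, so no counting interval can be given, and genes under 1 TPM in most libraries were not tested.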

Other observations

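Of 8 listed heat shock genes, 6 were tested, 3 rose and none fell, a share called of 50.0% beside 57.1% of all tested genes (HSFA2C fell after quantile normalization and after median-of-ratios scaling, and 4 rose without severe replicate 3), with a median of 0.63 against 0.21 over all tested genes. HSP18.0 (LOC_Os03g16030), a small chaperone, had 4.95, 5.69 and 6.93 TPM under severe drought, against 1.05, 2.06 and 1.63 TPM under normal water, and rose by 1.42 ± 0.19 (adjusted p = 0.00122). HSP17.4 (LOC_Os03g16020), of the same family, had 20.3, 19.6 and 12.3 TPM under severe drought, against 7.61, 7.04 and 9.19 TPM under normal water, and rose by 1.02 ± 0.21 (adjusted p = 0.00643), with severe replicate 3 nearest to normal. HSP101 (LOC_Os05g44340), a chaperone that unfolds aggregates, had 1.23, 1.41 and 1.49 TPM under severe drought, against 0.674, 0.746 and 0.749 TPM under normal water, and rose by 0.46 ± 0.10 (adjusted p = 0.00791). HSP101 passed the filter only through severe drought, so the count of rises depends in part on the filter.

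Gibberellin genes and trehalose genes were few. Of 4 gibberellin genes, all tested, 2 rose and none fell, a share called of 50% beside 57.1% of all tested genes. After either other scaling 1 rose and 1 fell, and 3 rose without severe replicate 3. Of 3 trehalose genes, 2 were tested, 1 rose and 1 fell, beside 38.0% and 19.2% of all tested genes. GID1 (LOC_Os05g33730), the gibberellin receptor, had 78.5, 76.8 and 75.6 TPM under severe drought, against 40.5, 36.7 and 42.3 TPM under normal water, and rose by 0.94 ± 0.09 (adjusted p = 0.000361). SLR1 (LOC_Os03g49990), the DELLA repressor that GID1 helps to remove, rose by 0.49 ± 0.09 (adjusted p = 0.00405), a call lost after quantile normalization at 0.24 (adjusted p = 0.0924) and after median-of-ratios scaling at 0.27 (adjusted p = 0.0615). GID2 (LOC_Os02g36974) did not pass at -0.28 ± 0.16 (adjusted p = 0.166). It passed as lower after quantile normalization at -0.53 (adjusted p = 0.0481) and after median-of-ratios scaling at -0.51 (adjusted p = 0.0352). GA20ox2 (LOC_Os01g66100) did not pass at 0.56 ± 0.41 (adjusted p = 0.273) and passed as higher without severe replicate 3, at 1.03 (adjusted p = 0.00204). TPP1 (LOC_Os02g44230), a trehalose phosphatase, had 3.05, 3.26 and 2.64 TPM under severe drought, against 19.2, 20.0 and 21.0 TPM under normal water, and fell by 2.41 ± 0.10 (adjusted p = 4.19e-05). TPP2 (LOC_Os10g40550), of the same family, rose by 0.93 ± 0.16 (adjusted p = 0.00361). TPP1 and TPP2 each overlap a gene model on the same strand.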
